A study of Mus musculus with 2 samples.

Results

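The 10 genes described here were 5 chemokines and 5 chemokine receptors that place lymphocytes within tissues: Cxcl13 with its receptor Cxcr5, Cxcl12 with Cxcr4, Cxcl16 with Cxcr6, Cxcl9 and Cxcl10 with Cxcr3, and the receptor Ccr7. They were taken by symbol from the 32285 genes of the feature tables, in which each of the 10 symbols occurred once, and they were followed through cell classes that were gated on marker genes in each library. Both libraries came from leukocytes of mouse gingiva, the mucosa around the teeth, that had been inflamed with bacteria for 2 weeks and then left for a further 2 weeks. In 1 library the mice were normoglycemic. In the other they were diabetic after streptozotocin, a compound toxic to pancreatic beta cells, the source of insulin. All mice in both groups carried the genotype CD11CCre-/-;FoxoLL on a mixed C57B6 and FVB background. Per the series description, an exon of their Foxo1 gene lay between loxP sites, no Cre was present to remove it, and the Foxo1 protein was normal. Each library pooled the cells of 4 mice and was not repeated, so differences between mice were not measured and no p-value was computed. The matrices also hold 4 antibody capture features whose meaning is not given in the sources used here, so they were not used to separate mice. Sorting by flow cytometry removed dead cells, CD31+ endothelial cells and Ter-119+ red cells, kept cells with the leukocyte protein CD45, and enriched CD11c+CD45+ cells, which include dendritic cells and many macrophages. The sort therefore bears on every share of cells given here, and non-leukocytes were present only as cells that passed it.

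Chemokines are small secreted proteins that bind to matrix and form gradients, and cells bearing the matching G protein-coupled receptor move along them. CXCL13 draws B cells and follicular helper T cells through CXCR5 and is known for organising B cell follicles, also in inflamed tissue outside lymph nodes. CXCL9 and CXCL10, both induced by interferon, attract effector T cells and natural killer cells through CXCR3, CXCL16 attracts CXCR6+ resident T cells, and CXCL12 holds CXCR4+ cells in place. CCR7 takes mature dendritic cells and naive or recirculating T cells out of tissue and into lymph nodes.

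Cxcl9 and Cxcl10 are neighbours on mouse chromosome 5 and share a receptor but had different ratios between the libraries in the same classes, so the 250 bases before each start site are shown. Both lie on the minus strand of GRCm38.p6, at chr5:92328080-92328329 and chr5:92348890-92349139, and are printed 5′ to 3′ from RefSeq. Capitals mark matches of 4 short motifs searched on both strands.

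Cxcl9: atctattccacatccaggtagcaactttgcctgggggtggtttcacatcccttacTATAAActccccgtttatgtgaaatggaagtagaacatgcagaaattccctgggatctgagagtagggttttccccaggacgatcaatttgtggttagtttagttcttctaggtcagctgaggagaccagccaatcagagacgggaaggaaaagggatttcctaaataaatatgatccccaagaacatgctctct
Cxcl10: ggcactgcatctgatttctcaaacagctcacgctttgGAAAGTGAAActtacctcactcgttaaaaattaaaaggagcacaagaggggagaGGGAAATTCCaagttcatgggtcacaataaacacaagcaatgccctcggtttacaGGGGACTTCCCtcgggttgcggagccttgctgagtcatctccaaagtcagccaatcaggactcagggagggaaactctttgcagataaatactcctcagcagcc

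The Cxcl10 stretch held 1 match of the interferon-stimulated response element motif at -213 from the start, and 3 matches of the kB motif at -159, -104 and -103, of which the last pair overlap. The Cxcl9 stretch held 1 match of TATAAA at -195 and none of the other motifs. Neither held TTCNNNGAA, the gamma-activated site. Among 32851 RefSeq promoters of the same length, 2.98% held the first motif, 7.25% the kB motif, 12.4% TATAAA and 7.02% the gamma-activated site. The same stretch of Cxcl13, which is not printed, held TATAAA at -46. These are matches of letters and not mapped binding sites. Promoters of 7 of the 10 genes were matched in the table.

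After filtering, 10948 normoglycemic and 10260 diabetic cells were kept, with medians of 5302.5 and 4631.5 unique molecular identifiers (UMIs, counts of captured RNA molecules), and the matrices shared 32 cell barcodes. The gate of 21 marker classes placed 76.6% and 88.1% of them. The gated share was thus higher in the diabetic library, and 2567 and 1222 cells stayed ungated. Levels are counts scaled to a class total of 1000000 UMIs (CPM), with 95% intervals that cover counting error only. In the 9 classes that held 50 or more cells on both sides a ratio, diabetic over normoglycemic, was formed. These were neutrophils (3475 normoglycemic and 4501 diabetic cells), monocytes (1071 and 1014), macrophages (1386 and 1229), type 1 conventional dendritic cells (225 and 241), type 2 conventional dendritic cells (559 and 363), mature dendritic cells (76 and 73), T cells (722 and 269), gamma-delta or type 17 T cells (241 and 181) and B cells (313 and 151). All names mean marker-like cells. Fibroblast-like cells numbered 23 and 271, so their levels are given without a ratio.

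Of the 90 gene and class pairs, 48 reached 10 CPM in either library and were compared. The ratio was at least 1.5-fold higher in 6 and at least 1.5-fold lower in 19, with the counting interval wholly beyond 1.5-fold in 3 and 16 of them. Only 2 of the 6 and 8 of the 19 were in classes where the gene's level was at or above that of the library's other cells. In macrophages 1 of 5 measured genes was higher (Cxcl13) and 1 lower (Cxcl9), where 2.36% and 3.84% of all genes were. In monocytes 1 of 4 was higher and 3 lower, against 8.22% and 8.04% of all genes, and in neutrophils 1 of 3 was higher and 1 lower, against 14% and 11.7%. Type 1 dendritic cells had 1 higher and 2 lower of 7 (all genes 5.79% and 5.92%), type 2 dendritic cells 0 higher and 1 lower of 5 (4.79% and 6.67%), and mature dendritic cells 0 higher and 2 lower of 6 (13.7% and 19.6%). T cells had 0 higher and 4 lower of 7, where 6.25% of all genes were higher and 16.3% lower. Gamma-delta or type 17 T cells had 1 higher and 3 lower of 5 (6.19% and 16.3%), and B cells 1 higher and 2 lower of 6 (9.1% and 23.5%). With 3 to 7 genes measured in a class these counts are small, and the lymphoid and mature dendritic backgrounds leaned to lower values.

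**Figure D1:**
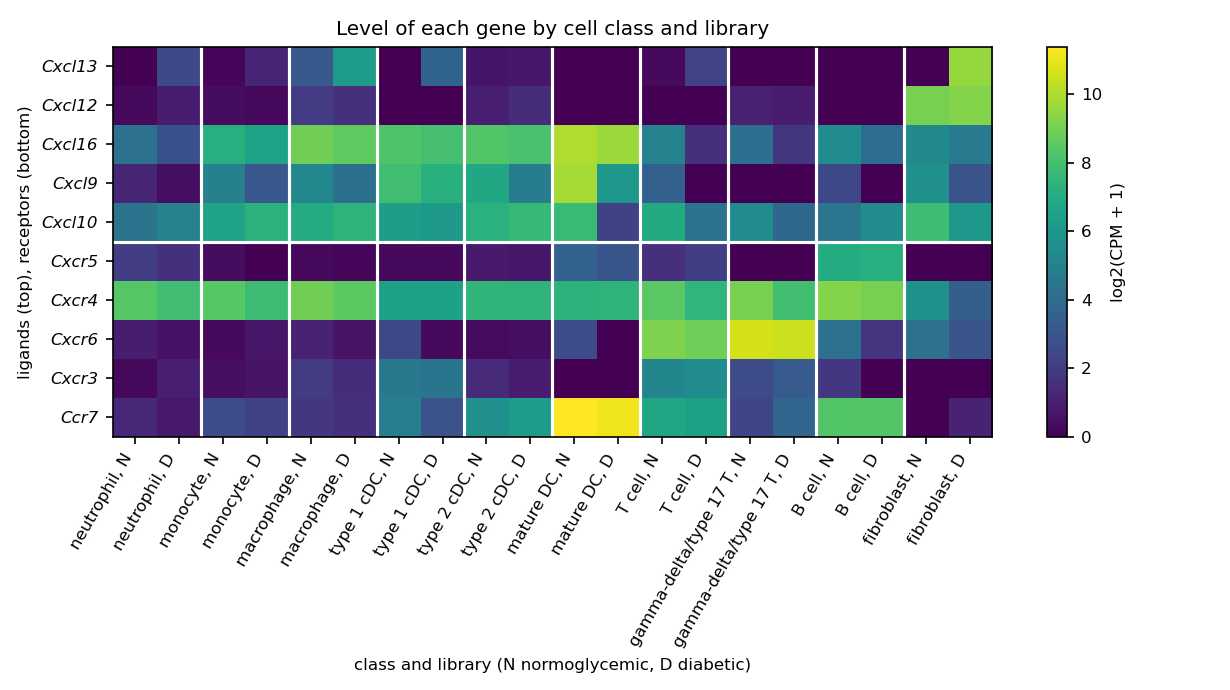
Level of each gene (rows) as log2(CPM + 1) in the 9 compared classes and fibroblast-like cells (columns), normoglycemic (N) beside diabetic (D); colour is best read along a row. Cxcr6 was brightest in the T cell classes and Ccr7 in mature dendritic cells in both libraries, whereas the Cxcl13 row was bright only in diabetic macrophages and fibroblast-like cells.

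**Figure D2:**
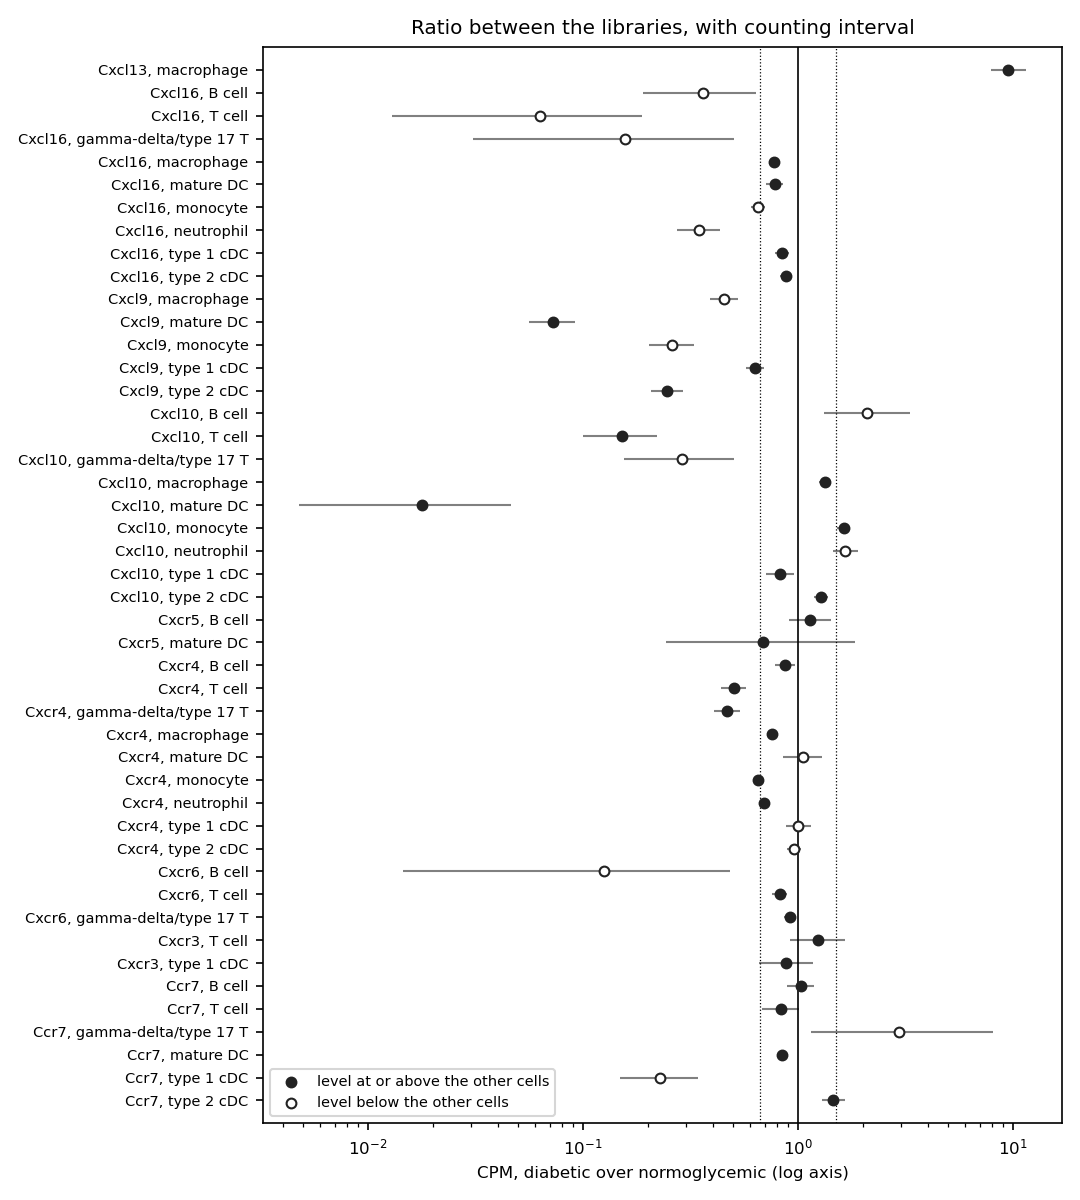
Ratio of CPM, diabetic over normoglycemic, on a log axis, for measured pairs with UMIs in both libraries; lines are exact 95% counting intervals, dotted lines mark 1.5-fold, and open points are classes with a level below that of the library's other cells. Cxcl13 in macrophages lay farthest to the right and Cxcl10 and Cxcl9 in mature dendritic cells were among those farthest to the left.

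Cxcl13, the B cell attractant (chr5:95956951-95961068, plus strand, GRCm38), was rare in the normoglycemic library, and in the diabetic one a few strongly positive macrophages and fibroblast-like cells held most of it. The normoglycemic library held 151 Cxcl13 UMIs in 31 cells and the diabetic library 4427 in 225 cells. In macrophages the level was 8.03 CPM (6.73 to 9.51) in the normoglycemic library and 76.2 CPM (71.6 to 80.9) in the diabetic one, a ratio of 9.48 (7.91 to 11.4). The counting intervals of the macrophage levels did not overlap, but they do not cover differences between cells or mice.

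The macrophage signal came from 19 of 1386 normoglycemic and 55 of 1229 diabetic cells, or 1.37% and 4.48%. The 10 highest cells held 88.1% and 80.7% of these UMIs, with up to 28 UMIs in a normoglycemic and 157 in a diabetic cell. From rank 16 of the 19 normoglycemic and rank 28 of the 55 diabetic cells on, each cell had 1 UMI. Without the 5 highest cells of each library the levels were 2.59 and 33.5 CPM. Few cells therefore carried the level in both libraries, and the difference remained without the highest of them. Neutrophils, which are not a known source of Cxcl13, served as a background. They had 0 of 3475 positive cells in the normoglycemic library, which at a limit of 3 counts allows up to 0.0863% of cells with a UMI. In the diabetic library 62 of 4501 neutrophils (1.38%) were positive, with 1.27 UMIs per positive cell, at median depths of 3472 UMIs against 10187 in macrophages. With every cell thinned to 1000 UMIs, 2.19% of diabetic macrophages and 0.448% of diabetic neutrophils were positive. Monocytes, nearer to macrophages in depth at medians of 11494 and 10840.5 UMIs, were positive in 0.187% and 1.38% of cells. Each positive monocyte had 1 UMI. The part of background in the number of positive macrophages was not tested.

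Cxcl13+ macrophages had high macrophage and low fibroblast genes, a profile that the gate itself selects for. Mrc1, C1qa and Trem2 are macrophage markers of the gate and Col1a1 is a fibroblast marker. The values below therefore only compare positive with negative cells inside the gate. In the diabetic library the mannose receptor gene Mrc1 stood at 1896 CPM in the 55 positive and 883 CPM in the 1174 negative macrophages, and the complement gene C1qa at 4205 and 2953 CPM. Trem2, a lipid receptor gene of macrophages, went the other way, at 261 and 321 CPM. Col1a1, the main fibrillar collagen gene of fibroblasts, was at 3.00 and 1.55 CPM. In the normoglycemic library Mrc1 was at 2080 and 1209 CPM, Trem2 at 327 and 334 CPM and Col1a1 at 0 and 1.59 CPM. Positive cells were also somewhat deeper, with medians of 10906 and 10183 UMIs in the diabetic library.

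Most diabetic Cxcl13 came from fibroblast-like cells that had passed the CD45 sort. They held 3187 UMIs, 72.0% of the library's total, at 773 CPM (747 to 801), in 52 of 271 cells. A single cell had 697 UMIs, the 10 highest held 74.3%, and without the 5 highest the level was 374 CPM. In the normoglycemic library 0 of 23 fibroblast-like cells were positive, which at a limit of 3 counts allows up to 13.04% of cells with a UMI. With 23 normoglycemic cells no ratio was formed within the class. Cxcl13+ fibroblast-like cells had 1394 CPM of Cxcl12 against 402 in the 219 negative cells, 1156 against 497 CPM of the matrix gene Dpt, and 2520 against 4573 CPM of Col1a1. C1qa was at 12.2 and 18.0 CPM in them, and the macrophage markers summed to 557 CPM over all diabetic fibroblast-like cells, against 25713 CPM in diabetic macrophages. The gate separates these classes by the same markers, so that contrast is partly built in.

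Cells with Xist UMIs and none from 4 Y-linked genes were called female, and the converse male, which gave 2 sets of called cells in each pool. The calls were made cell by cell, and how well they separate the mice of a pool was not tested. The balance of the calls differed by class, with 31 female-called and 1920 male-called normoglycemic neutrophils but 454 and 583 macrophages, and many cells had no call. Both sets had more Cxcl13 in diabetic macrophages: 8.72 and 91.3 CPM in female-called cells (7 of 454 and 26 of 465 positive) and 3.69 and 24.2 CPM in male-called cells (4 of 583 and 14 of 454). Diabetic fibroblast-like cells had 1413 CPM in 109 female-called and 384 CPM in 117 male-called cells, so both sets held the transcript. In type 1 dendritic cells the normoglycemic count was 0 and the diabetic count 56, of which 54 UMIs were in 1 cell. Across the 18 class sums the genes most like Cxcl13 were Col14a1 (Pearson r 0.80), Ctsk (0.79) and Tspan4 (0.75), a description over sums that share 2 libraries.

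**Figure D3:**
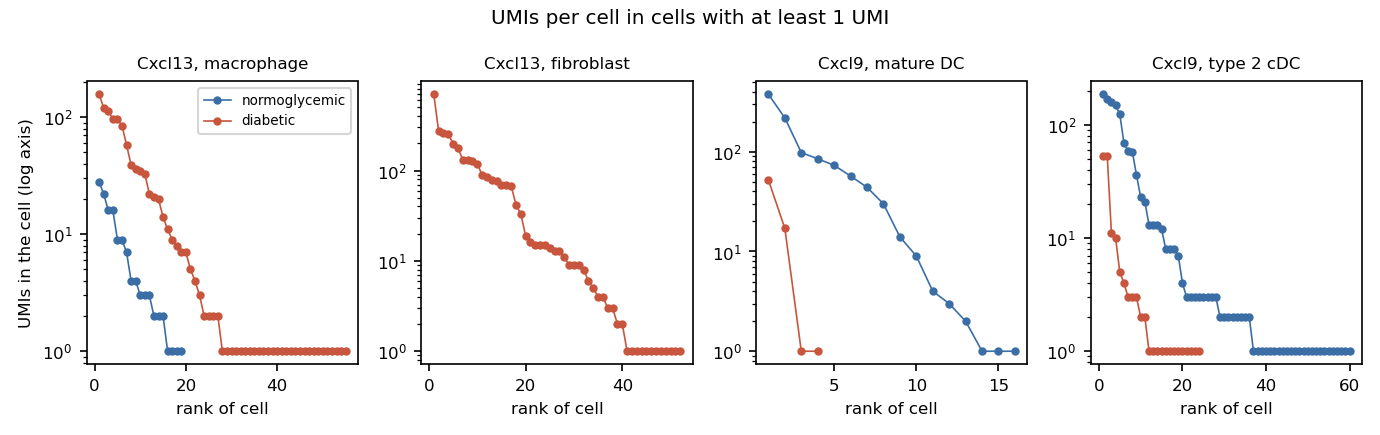
UMIs per cell (log axis) of Cxcl13 and Cxcl9 in positive cells ranked from the highest (at most 60 drawn), normoglycemic in blue and diabetic in red. Diabetic macrophages had more Cxcl13+ cells and higher counts in the highest of them, and 1 UMI per cell from rank 28 on. No normoglycemic fibroblast-like cell had a Cxcl13 UMI, while the Cxcl9 curves were lower and shorter in the diabetic library.

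Its receptor Cxcr5 (chr9:44511787-44561877, minus strand) was a B cell gene in both libraries and stayed within 1.5-fold there. B cells stood at 126 CPM (111 to 142) in the normoglycemic library and 143 CPM (119 to 171) in the diabetic one, a ratio of 1.14 (0.910 to 1.42). They held 69.6% and 67.4% of all Cxcr5 UMIs, and 140 of 313 and 63 of 151 cells were positive, against 1.53% and 0.689% of neutrophils. T cells had 9 and 5 Cxcr5 UMIs in all, so few T cells with Cxcr5 were detected at this depth. Foxp3+ T cells had 0 of 167 and 0 of 31 positive cells. B cells made up 2.86% and 1.47% of the cells kept, a share that the sort can also move. With clusters in place of gates the B cell ratio was 0.750, and in male-called B cells it was 1.83, so its side of 1 depended on how the cells were chosen. Cxcr5+ B cells had Ccr7 as often as the others, 72.9% against 76.3% in the normoglycemic and 66.7% against 63.6% in the diabetic library, with overlapping intervals. Fcrl1 (r 0.93), Chst3 (0.92) and Pik3c2b (0.92) had the most similar pattern over class sums.

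Cxcl12 (chr6:117168535-117181367, plus strand), which retains Cxcr4+ cells, was highest in non-leukocytes and reached 10 CPM in none of the 9 compared classes. Fibroblast-like cells had 534 CPM (459 to 619) in the normoglycemic library and 619 CPM (595 to 643) in the diabetic one, with 13 of 23 and 189 of 271 cells positive. They held 52.6% and 79.8% of the Cxcl12 UMIs, and normoglycemic macrophages 15.3% at 3.12 CPM. Mural or muscle-like cells had 115 CPM (103 to 128) in 288 diabetic cells, and only 6 such cells were found in the normoglycemic library. Endothelial-like cells had 159 CPM in 19 normoglycemic and 1434 CPM in 18 diabetic cells. In the latter, 8 cells held all 214 UMIs and 1 of them 104. The level over all cells was 3.82 CPM in the normoglycemic library and 41.0 CPM in the diabetic one. That level also depends on how many non-leukocytes passed the sort, 23 and 271 fibroblast-like and 6 and 288 mural or muscle-like cells. It is therefore not a change within a class.

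Cxcr4 (chr1:128588199-128592293, minus strand) was the most widely detected receptor and was lower in the diabetic T cell classes. T cells had 350 CPM (334 to 367) in the normoglycemic library and 176 CPM (155 to 199) in the diabetic one, a ratio of 0.502 (0.439 to 0.573). Gamma-delta or type 17 T cells had 527 CPM (495 to 560) and 246 CPM (218 to 277), a ratio of 0.468 (0.408 to 0.534). The share of positive cells was 66.2% and 44.2% of T cells, and 78.8% and 54.1% of gamma-delta or type 17 T cells. After thinning each cell to 1000 UMIs it was 25.3% and 15.2%, and 38.2% and 16.1%, so the order was the same at equal depth.

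The lower Cxcr4 level was seen in each T cell subset that was split off. Cd4+ cells without Foxp3 had 305 and 126 CPM, Cd8+ cells 288 and 108 CPM, and Foxp3+ cells 448 and 233 CPM. T cells in none of these subsets had 355 and 258 CPM. It was also seen in both sets of called cells, at 375 and 157 CPM in female-called and 335 and 178 CPM in male-called T cells. Monocytes had a ratio of 0.652 (0.621 to 0.686), which was within 1.5-fold by clusters (0.698), after thinning (0.679) and in male-called cells (0.717). The ratios of neutrophils (0.693), macrophages (0.756) and B cells (0.867) were within 1.5-fold. The dendritic cell classes were close to 1, at 1.003 (0.875 to 1.15) in type 1, 0.958 (0.885 to 1.04) in type 2 and 1.05 (0.849 to 1.29) in mature cells. B cells had the highest diabetic level, 530 CPM (482 to 581), followed by macrophages at 358 CPM, and in the normoglycemic library the order was B cells (611), gamma-delta or type 17 T cells (527) and macrophages (474). Neutrophil Cxcr4, at 335 and 233 CPM, was close to the level of the other cells of each library. The most similar patterns over class sums were those of Sh3bp5 (r 0.87), Mgat4a (0.86) and Klhl24 (0.86).

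Cxcl16 (chr11:70453983-70459984, minus strand), a chemokine made as a membrane protein and shed, was an antigen-presenting cell gene with a modestly lower level in the diabetic library. Mature dendritic cells had 1049 CPM (990 to 1111) and 815 CPM (763 to 871), a ratio of 0.777 (0.711 to 0.848). Macrophages had 487 CPM (476 to 497) and 376 CPM (366 to 386), a ratio of 0.772 (0.746 to 0.800), and held 43.1% and 41.7% of the UMIs. Type 1 (0.841) and type 2 (0.874) dendritic cells were nearer to 1, with levels of 305 and 256 CPM and of 313 and 274 CPM. All 4 stayed within 1.5-fold.

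Monocytes were lower by more, from 142 CPM (136 to 149) to 92.4 CPM (86.9 to 98.2), a ratio of 0.651 (0.602 to 0.703) that was within 1.5-fold by clusters (0.696) and with no cell filter (0.683). Neutrophils had 17.9 and 6.20 CPM, T cells 32.2 and 2.03 CPM, gamma-delta or type 17 T cells 16.7 and 2.63 CPM, and B cells 45.6 and 16.4 CPM, a B cell ratio that clusters moved from 0.361 to 0.814. These 4 classes lay far below the other cells of their library. The macrophage markers in the same T cells summed to 913 CPM in the normoglycemic library and 349 CPM in the diabetic one, in B cells to 1968 and 1346 CPM, and in gamma-delta or type 17 T cells to 543 and 345 CPM. They moved the same way as Cxcl16 there, and their part in these ratios was not tested. In neutrophils the macrophage markers went the other way, 270 and 455 CPM. Of the processing genes, Adam10, which sheds CXCL16, was at 111 and 113 CPM in macrophages and Adam17 at 189 and 131 CPM, and 0 of the 2 measured in that list were 1.5-fold apart there. F11r (r 0.96), Hfe (0.94) and Nostrin (0.94) were most like Cxcl16.

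**Figure D4:**
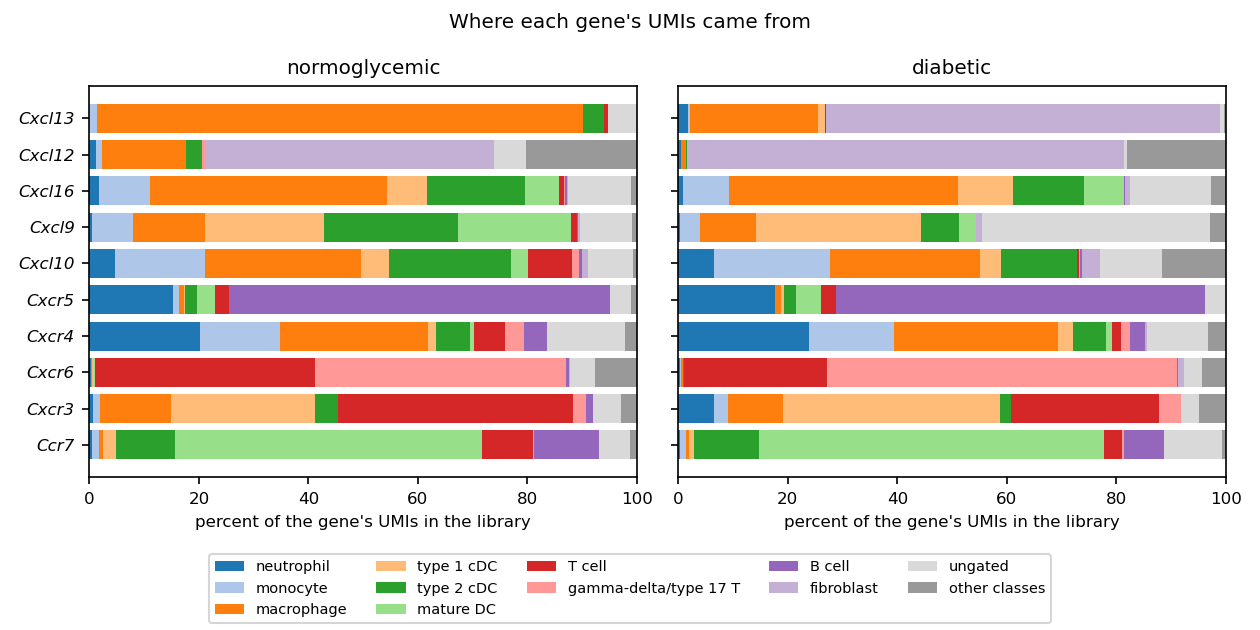
Share of each gene's UMIs by cell class in each library (percent of the gene's UMIs among the cells kept). Mature dendritic cells held most Ccr7 and the T cell classes most Cxcr6 in both libraries, fibroblast-like cells held most diabetic Cxcl13, and ungated cells held 41.6% of diabetic Cxcl9.

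Cxcr6 (chr9:123806475-123811760, plus strand), a receptor of tissue-resident T cells, marked the T cell classes in both libraries. Gamma-delta or type 17 T cells had 1610 CPM (1553 to 1667) and 1473 CPM (1404 to 1545), a ratio of 0.915 (0.862 to 0.972), with 229 of 241 and 173 of 181 cells positive. T cells had 570 CPM (549 to 592) and 467 CPM (433 to 503), a ratio of 0.819 (0.753 to 0.891), with 57.3% and 47.2% positive. Neutrophils, which should lack the gene, were positive in 0.345% and 0.178% of cells at median depths of 4247 and 3472 UMIs, against 5447 and 4830 in T cells. Type 2 innate lymphoid cells, at 504 CPM in 123 and 418 CPM in 34 cells, stood near the T cells, and natural killer cells lay lower at 79.4 and 44.1 CPM. The libraries thus differed by less than 1.5-fold in both T cell classes, each taken as a whole.

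Within T cells the subsets did not move alike. Cd8+ cells had 714 CPM (660 to 772) in the normoglycemic library and 337 CPM (287 to 393) in the diabetic one, whereas Cd4+ Foxp3-negative cells had 651 CPM (605 to 700) and 821 CPM (728 to 923). Foxp3+ cells had 265 and 246 CPM. The makeup of the T cell class differed too, with 23.1% and 11.5% of T cells Foxp3+ and 17.3% and 32.3% Cd8+. The difference between subsets was not tested. Ccr7 was rarer among Cxcr6+ T cells than among the others, 17.4% (13.9 to 21.4) against 33.8% (28.5 to 39.3) in the normoglycemic library and 4.72% (1.75 to 10.0) against 31.0% (23.5 to 39.3) in the diabetic one. Cxcr6+ T cells were the deeper ones, with medians of 5985 and 4955 UMIs in the normoglycemic library, and the part of depth was not tested. By sex call the T cell ratio was 0.765 in female-called and 1.18 in male-called cells, a difference that was not tested. In B cells Cxcr6 had 38 and 2 UMIs, below the other cells in both libraries, and the ratio was 0.929 in male-called B cells. T cell markers there summed to 138 and 14.1 CPM, and their part in the ratio was not tested. Cd3g (r 0.99), Bcl11b (0.99) and Lat (0.99), of which Cd3g and Lat are T cell markers of the gate, were most like Cxcr6.

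Cxcl9 (chr5:92321347-92328079, minus strand), induced chiefly by interferon gamma, was lower in the diabetic library in each of the 6 classes where it was measured. Mature dendritic cells had 904 CPM (849 to 961) in the normoglycemic library and 65.1 CPM (50.9 to 82.1) in the diabetic one, a ratio of 0.0721 (0.0558 to 0.0917). Type 2 dendritic cells had 112 CPM (106 to 118) and 27.5 CPM (23.4 to 32.1), a ratio of 0.246 (0.208 to 0.290), and type 1 dendritic cells 233 CPM (219 to 248) and 148 CPM (137 to 159), a ratio of 0.633 (0.574 to 0.696). Monocytes had 29.6 and 7.63 CPM (ratio 0.258) and macrophages 38.8 and 17.5 CPM (0.451), both at or below the level of their library's other cells. T cells had 49 UMIs, in 6 cells, and 0, at least 5.08-fold lower against a floor of 3 counts per library. Their normoglycemic level of 10.3 CPM was also below the 57.8 CPM of the other cells. Macrophage markers in T cells summed to 913 and 349 CPM, and their part in this ratio was not tested.

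Few cells had Cxcl9, and a minority of them held most of the UMIs. Mature dendritic cells were positive in 16 of 76 and 4 of 73 cells, type 2 cells in 61 of 559 and 24 of 363, and type 1 cells in 40 of 225 and 30 of 241. The 10 highest cells held 98.8% of the normoglycemic mature dendritic UMIs, and 1 cell had 376 of 1016. Neutrophils were positive in 0.576% and 0.133% of cells, at median depths of 4247 and 3472 UMIs against 15438.5 and 13975 in mature dendritic cells. Without the 5 highest cells of each library, type 2 cells had 39.2 and 5.18 CPM and type 1 cells 92.1 and 55.5 CPM. The direction was the same there, and in mature dendritic cells, with 4 positive diabetic cells, this could not be asked.

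Part of the diabetic Cxcl9 lay outside the gates. Ungated cells held 466 of the 4915 normoglycemic and 974 of the 2341 diabetic UMIs, the latter in 22 cells, of which 10 with 662 UMIs fell in macrophage clusters. Over the 5 myeloid antigen-presenting classes together the level was 94.2 and 34.5 CPM, a ratio of 0.367 (0.344 to 0.390). With the ungated cells of their clusters added it was 91.2 and 51.6 CPM, a ratio of 0.566 (0.538 to 0.595), and over all cells 0.544 (0.517 to 0.571). With clusters in place of gates, macrophages (0.886), monocytes (0.888) and type 1 dendritic cells (0.946) stayed within 1.5-fold, and type 2 cells had 186 and 49.4 CPM, a ratio of 0.266. The lower level in type 2 dendritic cells thus passed 1.5-fold with both ways of forming classes, and that in macrophages, monocytes and type 1 cells only with the gates. No cluster was named mature dendritic cell, so that class has no such value. The 149 cells gated as mature dendritic lay in clusters with other names or none. Clusters named type 1 or type 2 dendritic cell can thus hold them, so they are not a separate check of those gates. The part of mature dendritic cells in the cluster ratios was not tested.

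The sets of female-called and male-called cells differed in macrophages and monocytes. Female-called macrophages had 89.3 and 13.1 CPM of Cxcl9 (29 of 454 and 10 of 465 positive cells) and male-called macrophages 6.29 and 19.3 CPM (18 of 583 and 9 of 454). Female-called monocytes had 246 CPM in 61 cells and 0.318 CPM in 252, and male-called monocytes 9.84 and 14.0 CPM. In the 3 dendritic cell classes both sets were lower in the diabetic library, for example 172 and 41.5 CPM in female-called and 65.4 and 23.3 CPM in male-called type 2 cells. Among male-called mature dendritic cells the diabetic count was 1 UMI in 42 cells. Genes with the most similar pattern were Tapbp (r 0.92), Cst3 (0.92) and Timd4 (0.91).

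Cxcl10 (chr5:92346638-92348889, minus strand) answers to type I interferon and NF-kB as well as to interferon gamma. Its ratio was above 1 in monocytes, macrophages and type 2 dendritic cells, where that of Cxcl9 was below 1. In mature and type 1 dendritic cells and in T cells both genes were lower in the diabetic library. Monocytes had 96.4 CPM (91.0 to 102) of Cxcl10 in the normoglycemic library and 157 CPM (150 to 164) in the diabetic one, a ratio of 1.63 (1.51 to 1.75). Macrophages had 126 and 168 CPM (ratio 1.33, 1.25 to 1.41), type 2 dendritic cells 153 and 195 CPM (1.28, 1.18 to 1.38) and type 1 dendritic cells 83.1 and 68.4 CPM (0.823, 0.708 to 0.956). In mature dendritic cells it was low in the diabetic library, with 207 and 3.67 CPM, a ratio of 0.0177 (0.00478 to 0.0459), which rested on 9 of 76 and 1 of 73 positive cells. Over the 5 myeloid classes together the level was 122 and 151 CPM, a ratio of 1.24 (1.19 to 1.29).

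The shares of Cxcl10+ monocytes were close, 14.8% and 14.9%, and positive cells had 7.60 and 11.7 UMIs on average. Without the 5 highest cells of each library monocytes had 68.7 and 100.2 CPM, within 1.5-fold. The ratio was also within 1.5-fold after thinning, without the cells of highest depth and in each set of called cells alone. Macrophages were positive in 18.1% and 15.2% of cells and type 2 dendritic cells in 23.8% and 23.4%, against 2.47% and 2.11% of neutrophils. In both sets of called cells monocyte Cxcl10 was higher in the diabetic library, at 144 and 216 CPM in female-called and 86.5 and 122 CPM in male-called cells. Type 1 dendritic cells were also higher in each set, at 138 and 181 CPM and at 18.7 and 39.9 CPM, although their pooled ratio was below 1. Neutrophils (19.5 and 32.4 CPM, ratio 1.66) and B cells (21.3 and 44.6 CPM, 2.10) were also above 1.5-fold but lay below the other cells, and 37 of the 38 diabetic B cell UMIs were in 1 cell. The neutrophil ratio turned to 0.327 in male-called cells, at 23.3 and 7.62 CPM, and to 0.972 after thinning, and the B cell ratio to 0 in male-called cells.

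T cells had 125 CPM (115 to 135) of Cxcl10 in the normoglycemic library and 18.9 CPM (12.6 to 27.4) in the diabetic one, in 72 of 722 and 7 of 269 cells. The 72 Cxcl10+ normoglycemic T cells had 342 CPM of C1qa and 1277 CPM of Apoe, both macrophage genes, against 57.7 and 290 CPM in the other 650. Their Cd3e stood at 591 CPM against 761. Mrc1 was nearer, at 51.9 against 38.4 CPM. The dendritic cell markers Cd209a (0 against 8.31 CPM), Clec10a (3.05 against 7.08) and Mgl2 (7.63 against 34.0) were lower in the positive cells. In the 7 diabetic Cxcl10+ T cells C1qa was at 0 against 26.6 CPM, Apoe at 176 against 145 and Mrc1 at 78.1 against 11.2. C1qa and Apoe thus moved with Cxcl10 in normoglycemic T cells, and the part of macrophage RNA in the ratio was not tested. In male-called T cells the ratio was 1.05 (0.608 to 1.71). Gamma-delta or type 17 T cells had 45.5 and 13.1 CPM in 12 and 4 cells, a ratio of 0.289 that was 0.785 by clusters.

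Cells with Cxcl9 carried Cxcl10 more often than the others of their class. In type 2 dendritic cells this was 47.5% (34.6 to 60.7) of 61 against 20.9% (17.4 to 24.7) of 498 cells in the normoglycemic and 50% (29.1 to 70.9) of 24 against 21.5% (17.3 to 26.3) of 339 in the diabetic library. Macrophages had 37.9% against 17.2% and 32% against 14.9%. Most Cxcl10+ cells nonetheless lacked Cxcl9, 104 of 133 in normoglycemic and 73 of 85 in diabetic type 2 dendritic cells. Positive cells were deeper in these classes, with medians of 20752 and 18051.5 UMIs in normoglycemic type 2 cells, and the part of depth was not tested. Mmp12 (r 0.82), Lpl (0.80) and Crat (0.76) had the pattern most like Cxcl10.

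**Figure D5:**
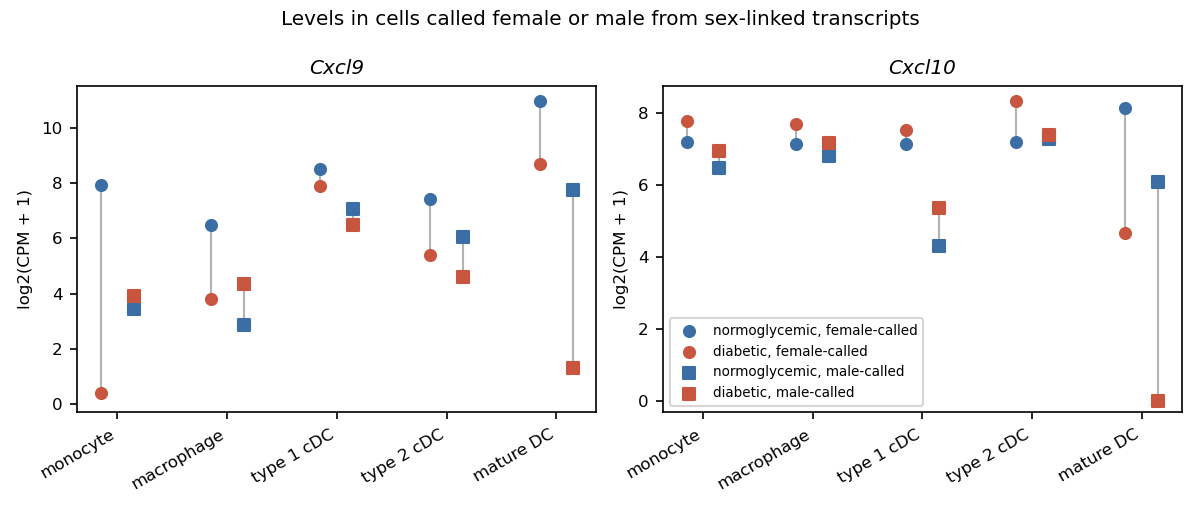
Cxcl9 and Cxcl10 levels, log2(CPM + 1), in cells called female (circles) or male (squares) in 5 myeloid classes, normoglycemic in blue and diabetic in red. Cxcl9 was lower in the diabetic library in both sets of the 3 dendritic cell classes and in opposite directions in monocytes and macrophages, while Cxcl10 was higher in both sets of monocytes, macrophages and type 1 and type 2 dendritic cells.

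Cxcr3 (chrX:101731535-101734269, minus strand), the receptor of both, was found in T cells and type 1 dendritic cells and did not reach 1.5-fold in either. T cells had 36.2 CPM (31.0 to 42.1) and 44.7 CPM (34.5 to 56.8), a ratio of 1.23 (0.914 to 1.65), in 108 of 722 and 39 of 269 cells. Type 1 dendritic cells had 23.0 CPM (18.8 to 27.9) and 20.2 CPM (16.4 to 24.7), a ratio of 0.878 (0.659 to 1.17), in 31.1% and 26.6% of cells. Median depths were 19360 and 18574 UMIs there and 5447 and 4830 in T cells. Neutrophils were positive in 0.0863% and 0.289% of cells. Cxcr3+ T cells also had Cxcr6 in 64.8% (55.0 to 73.8) and 66.7% (49.8 to 80.9), against 56.0% and 43.9% of the other T cells, and the intervals of the compared shares overlapped in both libraries. After thinning to 1000 UMIs the ratios were 0.418 in T cells and 0.187 in type 1 dendritic cells, from few UMIs, and in female-called T cells it was 2.52, so no direction was stable for Cxcr3. Gna15 (r 0.85), Itgae (0.83) and Mllt3 (0.83) were most like Cxcr3.

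Ccr7 (chr11:99144196-99155077, minus strand) belonged above all to mature dendritic cells, which had 2657 CPM (2562 to 2754) in the normoglycemic library and 2226 CPM (2139 to 2317) in the diabetic one. The ratio was 0.838 (0.794 to 0.884), and 70 of 76 and 68 of 73 cells were positive. They held 56.0% and 63.0% of all Ccr7 UMIs while making up 0.694% and 0.712% of the cells kept. The class thus had a similar share of cells in both libraries.

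B cells came next, at 315 CPM (291 to 340) and 324 CPM (287 to 365), a ratio of 1.03 (0.891 to 1.19), with 74.8% and 64.9% positive. T cells had 104 CPM (95.3 to 114) and 86.6 CPM (72.3 to 103), a ratio of 0.831 (0.679 to 1.01), and type 2 dendritic cells 53.3 CPM (49.0 to 57.9) and 77.8 CPM (70.8 to 85.3), a ratio of 1.46 (1.29 to 1.65). Neutrophils were positive in 0.691% and 0.267% of cells. Type 1 dendritic cells had 28.3 and 6.46 CPM, below the other cells, in 23 of 225 and 12 of 241 cells, and 5 cells held most of it: without them the levels were 8.30 and 1.49 CPM. With clusters in place of gates this ratio was 1.04, at 366 and 381 CPM, and the T cell ratio was 0.419, at 74.8 and 31.3 CPM. Clusters named type 1 dendritic cell can hold cells gated as mature dendritic, whose part in the value of 1.04 was not tested. Type 2 dendritic cells lay on opposite sides of 1 by sex call, at 0.510 in female-called and 1.56 in male-called cells, as did B cells at 0.683 and 1.34, differences that were not tested. Gamma-delta or type 17 T cells had 8 and 14 UMIs in 7 and 5 cells, a ratio of 2.93 that clusters turned to 0.327. Cd8+ T cells had 48.0 and 116 CPM of Ccr7 and Cd4+ cells 144 and 46.7 CPM, so the subsets lay on opposite sides of 1, a difference that was not tested. Rras2 (r 0.92), Mical3 (0.92) and Phlpp1 (0.87) were most like Ccr7.

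Other genes of these pathways were taken from 10 lists and are given as counts beside the shares of all genes above. In T cells 1 of 11 measured interferon-gamma pathway genes was at least 1.5-fold higher and 3 lower (list median log2 ratio -0.08, all genes -0.11). The higher one was Ifng itself, the cytokine that induces Cxcl9, at 75.8 and 156 CPM, a ratio of 2.05. In mature dendritic cells 1 of 10 was higher and 2 lower (median -0.41, all genes -0.08), with the transcription factor Irf1 among the lower ones at 315 and 157 CPM. In type 2 dendritic cells, where Cxcl9 was also lower, Irf1 had 83.1 and 86.3 CPM, with 0 higher and 2 lower of 9. In macrophages 0 were higher and 1 lower of 10. The Ifng level was scaled to the UMIs of gated T cells, which numbered 722 normoglycemic and 269 diabetic. Of these T cells 17.3% and 32.3% were Cd8+. The relation of Ifng in T cells to the Cxcl9 of dendritic cells was not tested.

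Among the other CC chemokines, 0 of 11 were higher and 7 lower in mature dendritic cells (median log2 ratio -0.95), with Ccl3, a macrophage inflammatory protein, at 1495 and 292 CPM and Ccl4 at 1543 and 801 CPM. Ccl22, another member of that list, is a marker of the mature dendritic gate. Macrophages had 0 higher and 1 lower of 11, Ccl8 at 598 and 321 CPM. In T cells 1 of 10 was higher and 5 lower. The higher one was Ccl5, a product of effector and Cd8+ T cells, at 701 and 3338 CPM, a ratio of 4.76, beside the larger Cd8+ share. Among the chemokines outside the CC family 1 of 6 in T cells was higher, Xcl1, which attracts type 1 dendritic cells, at 349 and 702 CPM, and 1 lower. Type 2 dendritic cells had 0 higher and 4 lower of 4 there, where Cxcl2, which draws neutrophils, stood at 4241 and 2374 CPM.

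Of the other positioning and retention genes, 4 of 11 were higher and 2 lower in T cells, where 6.25% of all genes were higher and 16.3% lower. Klf2, a transcription factor of recirculating T cells, stood at 284 and 543 CPM and the integrin gene Itga4 at 85.1 and 164 CPM, both with intervals beyond 1.5-fold, while the retention gene Cd69 was at 615 and 612 CPM. Among the T follicular helper genes 0 of 5 were higher and 1 lower in T cells, near the share of all genes lower there. The lower one was the costimulator Icos at 1131 and 511 CPM, and Pdcd1 stood at 128 and 144 CPM. Foxp3+ cells made up 23.1% and 11.5% of T cells, and the part of that change in Icos was not tested. Of the genes of lymphoid tissue organisation 0 of 6 were 1.5-fold apart in T cells, where Ltb, the lymphotoxin beta gene, was at 504 and 478 CPM, and 1 of 7, the B cell survival factor gene Tnfsf13b, was higher in macrophages at 18.8 and 29.0 CPM. Among receptor signalling and desensitisation genes, Rgs1, which damps chemokine receptor signals, was higher in monocytes (53.2 and 145 CPM), type 1 (56.6 and 129) and type 2 dendritic cells (142 and 300), the only gene of its list to be higher in those 3 classes. Among the other chemokine receptors 1 of 6 was higher in monocytes, Cx3cr1 at 37.8 and 84.1 CPM, and 1 lower, Ccr1 at 601 and 370 CPM. None of the 4 atypical chemokine receptors, which scavenge ligands, reached 10 CPM in a compared class.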

How the data were processed

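Gene counts were measured by droplet single-cell RNA sequencing (10x Genomics) in 1 normoglycemic and 1 diabetic library, each pooled from 4 mice. The deposited files hold raw UMI counts per gene and cell barcode, written by Cell Ranger 4.0.0 per the file headers, while the submitters' processing notes name Cell Ranger 6.0.2 and mm10. Cells with at least 500 UMIs, 200 genes and at most 15% mitochondrial UMIs were kept, and no doublet caller was run. A cell entered a class with at least 3 of its markers, a scaled score of at least 0.25 and a margin of 0.25 over the next class. These thresholds and the cluster resolution of 2 were set after class sizes and sums of the 10 genes had been seen, and 531 normoglycemic and 322 diabetic cells lay within 0.1 of the cut.

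Counts were summed per class and library and divided by the class total (CPM). Intervals at 95% were exact Poisson for levels, Clopper-Pearson for shares and conditional binomial for ratios. For a share of 0 the limit is 3 counts of the total. Ratios were compared at a minimum of 10 CPM in either library. With 1 library per group no test was run, and the differences concern these pools. The ratio code was tested on simulated data. Classes from clusters, other gates, filters and scalings, thinning to 1000 UMIs, cells called female or male, and leaving out cells were tried as alternatives. The alternative without the 5 highest cells was chosen after seeing the data.

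The genes and lists were chosen with earlier results of these data known. Named were the 10 genes, from each list the measured genes with the highest level or with an interval beyond 1.5-fold, and the 3 genes most correlated with each of the 10 over log2(CPM + 1) of 18 class sums, at a minimum of 20 CPM. Irf1 in type 2 dendritic cells, Ccl4, Cd69, Pdcd1, Ltb, Adam10, Adam17 and Tnfsf13b were named after their values were seen where this rule did not name them. Coordinates are from the GRCm38 annotation and promoters from RefSeq. Tools were Python 3.11.15, numpy 2.4.6, pandas 2.3.3, scipy 1.17.1, scanpy 1.11.5, and R 4.3.3 with edgeR 4.0.16 and DESeq2 1.42.0 for scaling factors only.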

Additional observations from a re-analysis of the deposited data

Results flagged for a closer look

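The balance of cells called female and male differed between classes. Among the measured pairs, 7 ratios lay on opposite sides of 1 in the 2 sets with both counting intervals clear of 1, and others did so with an interval that reached 1. None of these differences was tested. Cxcl9 in macrophages had a ratio of 0.147 (0.114 to 0.186) in female-called and 3.07 (2.14 to 4.47) in male-called cells. Cxcl9 in monocytes had 0.00129 (3.25e-05 to 0.00729) in female-called cells, from 174 UMIs in 61 normoglycemic and 1 UMI in 252 diabetic cells, and 1.43 (1.04 to 1.95) in male-called cells. Ccr7 in type 2 dendritic cells had 0.510 (0.368 to 0.696) and 1.56 (1.32 to 1.84), and Ccr7 in B cells 0.683 (0.510 to 0.903) and 1.34 (1.06 to 1.69). Cxcr6 in T cells had 0.765 (0.658 to 0.888) and 1.18 (1.03 to 1.35). Cxcr4 in type 2 dendritic cells had 1.36 (1.16 to 1.60) and 0.756 (0.679 to 0.841). Cxcl10 in gamma-delta or type 17 T cells had 3.19 (1.18 to 9.43), from 7 and 13 UMIs, in female-called cells and 0 (upper bound 0.129), from 54 and 0 UMIs, in male-called cells.

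The matrices also hold 4 antibody capture features, named C1 to C4, which none of the comparisons used. They summed to 685010 UMIs in the normoglycemic and 245491 in the diabetic library, with at most 11225 UMIs of 1 feature in a cell and medians of 0 to 2 per cell. From 43 to 102 cells per feature and library held over 100 UMIs. What they mark, and whether they tell the pooled mice apart, is not given in the sources used here.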

How the results depend on the processing

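No paired analysis was possible because each group is 1 pooled library. The Cxcl13 ratio in macrophages (9.48) was 26.6 with cells thinned to 1000 UMIs, 6.55 in male-called cells and 12.9 without the 5 highest cells. The Cxcl9 ratio in type 2 dendritic cells (0.246) was 0.182 with 1 marker more in the gate, 0.426 after thinning, 0.178 without the top 5% of cells by UMIs, 0.356 in male-called cells and 0.132 without the 5 highest cells. In mature dendritic cells it (0.0721) was 0.134 after thinning, 0.205 in female-called cells, 0.00698 in male-called cells and 0 without the 5 highest cells, a value fixed by its 4 positive diabetic cells, and had no value by clusters. The Cxcr4 ratio in T cells (0.502) was 0.642 after thinning and 0.419 in female-called cells. The others of these values kept their direction. Calls were counted anew over all pairs in each setting. The higher calls (6) numbered 3 by clusters, 3 after thinning, 3 without the top 5% of cells and 1 without the 5 highest cells. The lower calls (19) numbered 11 by clusters, which can include pairs not among the 19. At a minimum of 50 CPM, higher calls over the lists went from 48 to 27 and lower calls from 119 to 76, and the share of all ratios called higher from 7.41% to 4.36%. With no minimum the shares called higher and lower were 19.8% and, from 12.5%, 25.3%. Among pairs at least 1.5-fold apart, direction reversed by clusters for Ccr7 in type 1 dendritic cells (1.04), Ccr7 in gamma-delta or type 17 T cells (0.327) and Cxcl10 in B cells (0.814). In male-called cells it reversed for Cxcl9 in monocytes (1.43) and macrophages (3.07) and Cxcl10 in T cells (1.05), neutrophils (0.327) and B cells (0), and in female-called cells for Cxcl10 in gamma-delta or type 17 T cells (3.19). After thinning it reversed for Cxcl10 in neutrophils (0.972), and without the top 5% of cells for Cxcl10 in B cells (0). Without the 5 highest cells Ccr7 in gamma-delta or type 17 T cells and Cxcl10 in B cells were 0, as their 5 and 2 positive diabetic cells fix. The cause was not tested. TMM and size-factor scaling shifted log2 ratios by -0.15 to 0.13.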
